A study of Homo sapiens with 4 samples.

Results

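The aminoacyl-tRNA synthetases were examined in CRL-1932 cells, a human clear cell renal cell carcinoma line also known as 786-O, with and without the chemokine MCP-1 (CCL2). The set holds 38 genes, chosen by symbol: 19 cytosolic enzymes, whose symbols end in 1 plus FARSA and FARSB, 16 mitochondrial enzymes, whose symbols end in 2, and AIMP1, AIMP2 and XPOT, which are not synthetases. A probe set was named for 33 of them, among 17687 named genes, and these comprise 16 cytosolic and 15 mitochondrial enzymes, AIMP1 and XPOT. MARS1, QARS1, VARS1, TARS2 and AIMP2 have no probe set under their symbol in the annotation used and were not analysed here. The set was chosen with earlier results of these data known, so its counts beside all probe sets are descriptions. The 2 untreated arrays came from cells of the same passage as the treated ones, and the 2 MCP-1-treated arrays from cells given 5 ng/mL MCP-1 for 16 h according to the labels, whereas the text of the study gives a longer time. Both groups were grown in the same serum-containing RPMI1640 medium, and the labels name no allele, transgene or other agent. All 4 arrays come from 1 cell line. The methods describe duplicate dishes of MCP-1-treated cells and the treated labels name biological replicates, and p-values measure only the spread between these arrays of this line.

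Aminoacyl-tRNA synthetases attach each amino acid to its tRNA before translation, and the nucleus encodes separate enzymes for the cytosol and for the mitochondrial matrix. For most amino acids these are products of different genes, while GARS1 and KARS1 serve both compartments from 1 gene each. Several cytosolic enzymes sit in the multisynthetase complex, held together by scaffolds that include AIMP1 and AIMP2, and XPOT (exportin-t) carries tRNA out of the nucleus. Many cytosolic synthetase genes are known targets of the amino acid response, in which the transcription factor ATF4, paired with a C/EBP protein, binds a composite C/EBP-ATF element.

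The values are log2 signals of 4 Clariom S arrays, and a difference of 1 is a doubling of signal. Array medians lay between 6.20 and 6.28, and the arrays correlated pairwise at 0.993 to 0.995, with MCP-1-treated replicate 2 having the lowest correlations. Of the fixed markers, 9 of 11 renal carcinoma and proximal tubule genes lay above the 90th percentile of negative control probe sets (6.11), PAX8 among them, while the proximal tubule receptors LRP2 and CUBN did not. Of the other lists, 1 of 5 leukocyte markers (CD68), 0 of 5 endothelial and 0 of 5 fibroblast markers did, and no marker passed the adjusted threshold. The value of 6.11 is for means over the 4 arrays. On single arrays that percentile was 6.48 and 6.36 in untreated cells, 6.36 on MCP-1-treated replicate 1 and 6.70 on replicate 2. In bulk RNA, fewer cells of a kind and less RNA per cell cannot be told apart.

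The C/EBP-ATF element was searched as TGATGNAA on both strands of the RefSeq promoters (GRCh38.p14, from 250 bases before to 50 after each annotated start), of which 33 of the 38 genes had at least 1. It was found in 7 of 16 cytosolic genes with a promoter, in 1 of 14 mitochondrial genes and in none of AIMP1, AIMP2 and XPOT. For comparison, 3.59% of the 14250 genes on the array with a promoter and 3.62% of all 35116 windows held it. A match describes letters in a window, not a bound site. The 8 matches are shown because 7 of them lie in cytosolic genes and they are set beside the fold changes further on, 30 bases each, 5′ to 3′ on the strand of the gene, with the element in capitals:
AARS1, chr16:70289675-70289704, minus strand: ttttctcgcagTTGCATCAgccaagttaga
CARS1, chr11:3057407-3057436, minus strand: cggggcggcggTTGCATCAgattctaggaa
GARS1, chr7:30594834-30594863, plus strand: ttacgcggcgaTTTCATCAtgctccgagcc
IARS1, chr9:92293692-92293721, minus strand: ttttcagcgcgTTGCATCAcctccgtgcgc
MARS1, chr12:57488053-57488082, plus strand: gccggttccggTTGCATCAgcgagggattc
NARS1, chr18:57621804-57621833, minus strand: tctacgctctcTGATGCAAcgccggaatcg
TARS1, chr5:33440956-33440985, plus strand: gcgcctttcgaTTGCATCAgctggtccagc
YARS2, chr12:32756076-32756105, minus strand: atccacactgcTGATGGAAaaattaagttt

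The letters TTGCATCA, the reverse complement of TGATGCAA, stood on the gene strand of AARS1, CARS1, IARS1, MARS1 and TARS1. NARS1 held TGATGCAA itself, while GARS1 held TTTCATCA and the mitochondrial YARS2 held TGATGGAA. In the cytosolic genes CARS1, GARS1, IARS1, MARS1, NARS1 and TARS1 the first base of the element lay between -33 and 15 relative to the transcription start, with the GARS1 match before its downstream start. In AARS1 it lay at -187 and in YARS2 at -197. The cyclic AMP response element TGACGTCA was present in 1.85% of windows and, of the whole set, in AIMP2 alone. The CCAAT box, a general promoter motif, was present in 7 of 16 cytosolic and in 9 of 14 mitochondrial genes, against 42.3% of the array genes with a promoter. HARS1 and HARS2 are neighbours on chromosome 5, transcribed away from each other from starts 85 bases apart, and neither window held any of these motifs.

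**Figure D1:**
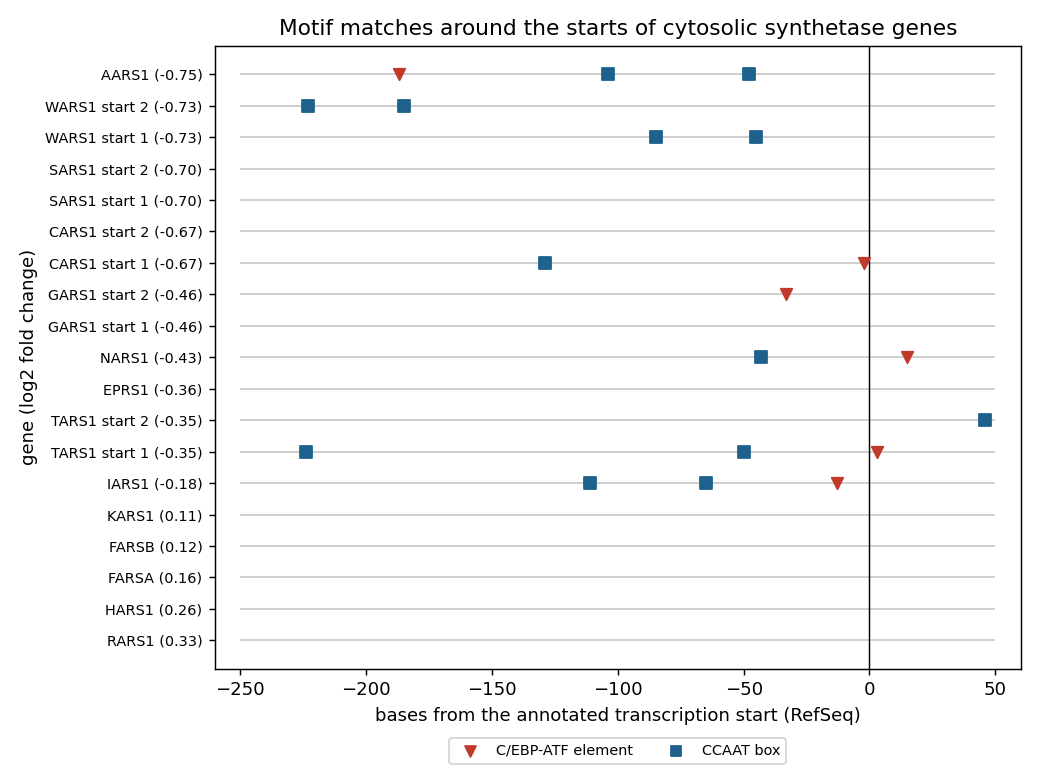
Motif matches in the promoters of measured cytosolic synthetase genes, plotted by the first base of the match relative to the annotated transcription start (x axis, bases), with 1 line per annotated start and the genes ordered by log2 fold change (in brackets). Genes with the C/EBP-ATF element lie between -0.75 (AARS1) and -0.18 (IARS1), while SARS1 and WARS1 have similar fold changes to AARS1 and no element in these windows.

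After MCP-1, treated means were lower for most cytosolic synthetases and in both directions for mitochondrial ones. The treated mean was lower in 11 of 16 cytosolic enzymes and higher in 5, against 47.7% of all probe sets with a lower treated mean. The median log2 fold change was -0.35 over the cytosolic enzymes, 0.05 over the mitochondrial enzymes and 0.01 over all probe sets tested. Much of the cytosolic median came from MCP-1-treated replicate 2, the array with the lowest correlations: without it the median was -0.12. Between arrays numbered 1, 8 of 16 cytosolic enzymes were lower and the median was -0.02. Between arrays numbered 2 these were 11 of 16 and -0.40. Matching by number follows the labels alone, since same-numbered arrays did not deviate together (correlation -0.0466), and this holds for the block used below as well. The lowest cytosolic values were those of AARS1, WARS1, SARS1 and CARS1, each at least 1.5-fold lower, where 2.21% of all probe sets were at least 1.5-fold lower. No member was 2-fold changed, no mitochondrial enzyme reached 1.5-fold in either direction, and no cytosolic enzyme was 1.5-fold higher (2.44% of all probe sets were).

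In the limma fit with replicate number as a block, no member passed an adjusted p of 0.05, a threshold that 0.0326% of all probe sets (7 of 21448) passed. At an unadjusted p of 0.05, 5 of 16 cytosolic enzymes were lower and 0 higher, against 2.36% of all probe sets lower and 2.59% higher, and 0 of 15 mitochondrial enzymes were called in either direction. On the arrays themselves, both treated values lay below both untreated values in 8 of 16 cytosolic enzymes (15.2% of all probe sets) and above both in 3 (16.3% of all probe sets). Among the 10871 probe sets brighter than the negative control percentile, where all 16 cytosolic enzymes lie, the shares were 1.74% at an unadjusted p of 0.05 and lower, 16.5% with both treated values below, and 1.63% at least 1.5-fold lower.

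In the block fit the SE of a member's log2 fold change lay between 0.24 and 0.30, bright or dim, whereas dim probe sets varied more: the median within-group SD was 0.173 for bright and 0.262 for dim probe sets, and 0.158 for the cytosolic enzymes. Each SE comes mostly from a spread shared over all probe sets (9.60 prior against 1 residual degrees of freedom). The SEs, intervals and limma p-values thus reflect little of a gene's own replicate spread. With a limma variance prior that follows the mean signal and is estimated robustly, 2 settings changed together (the trend and robust prior), AARS1, SARS1 and WARS1 passed the adjusted threshold as lower, against 0.242% of all probe sets called lower. With that prior and no block, 0 of 16 cytosolic enzymes passed. Over the alternatives run, the limma adjusted p ranged from 0.00166 to 1 for AARS1, from 0.0295 to 1 for SARS1 and from 0.00695 to 1 for WARS1.

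AARS1, which charges alanine, had log2 signals of 14.06 and 14.12 in untreated cells and of 13.28 and 13.42 after MCP-1. Both treated arrays lay well below both untreated ones, and the replicates were close together. The log2 fold change was -0.75 (SE 0.24, 95% interval -1.28 to -0.21), or 1.68-fold lower. Its adjusted p was 0.957 in the limma fit (unadjusted 0.0111) and 0.00166 with the trend and robust prior. Without the block, that prior did not bring AARS1 past the adjusted threshold. The 250 bases before its start hold the element and a pair of CCAAT boxes, one of them reversed, all in capitals:
AARS1, chr16:70289507-70289756, minus strand: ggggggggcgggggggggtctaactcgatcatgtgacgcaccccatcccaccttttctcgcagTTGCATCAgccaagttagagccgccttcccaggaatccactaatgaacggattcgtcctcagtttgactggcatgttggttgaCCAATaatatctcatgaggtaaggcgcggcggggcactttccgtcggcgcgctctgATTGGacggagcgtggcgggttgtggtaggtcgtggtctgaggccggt

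SARS1, the seryl-tRNA synthetase, had signals of 12.86 and 12.80 in untreated and of 12.09 and 12.17 in treated cells. The groups did not overlap, and the gap between them was wider than that between replicates. Its log2 fold change was -0.70 (SE 0.24, 1.62-fold lower), with limma adjusted p-values of 0.957 and, with the trend and robust prior, of 0.0295. SARS1 did not pass with that prior once the block was dropped. The promoter of SARS1 is shown as a contrast to that of AARS1, since none of the motifs searched is in it:
SARS1, chr1:109213643-109213892, plus strand: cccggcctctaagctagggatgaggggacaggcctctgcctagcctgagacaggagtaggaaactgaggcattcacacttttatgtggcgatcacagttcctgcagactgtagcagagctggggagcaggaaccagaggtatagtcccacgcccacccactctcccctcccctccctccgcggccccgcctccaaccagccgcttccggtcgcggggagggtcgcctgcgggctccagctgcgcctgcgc

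WARS1, the tryptophanyl-tRNA synthetase, which is also known as an interferon-inducible gene, had untreated signals of 13.41 and 13.30 and treated signals of 12.94 and 12.30. Both treated arrays were lower, but they differed from each other by more than the untreated arrays did, with replicate 2 the lower of them. The log2 fold change was -0.73 (SE 0.26, 1.66-fold lower), with limma adjusted p-values of 0.957 and, with the trend and robust prior, of 0.00695. WARS1 did not pass with that prior and no block, and the methods' paired t-test gave an unadjusted p of 0.221. Leaving out 1 array at a time gave values from -1.05 to -0.41. Its upstream sequence holds CCAAT boxes, in capitals, without the C/EBP-ATF element:
WARS1, chr14:100376328-100376577, minus strand: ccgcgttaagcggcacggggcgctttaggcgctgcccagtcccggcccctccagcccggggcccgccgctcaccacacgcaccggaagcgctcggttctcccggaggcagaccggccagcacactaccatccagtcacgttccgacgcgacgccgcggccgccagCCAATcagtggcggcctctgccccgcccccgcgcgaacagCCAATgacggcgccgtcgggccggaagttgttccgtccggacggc

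CARS1, which charges cysteine, had signals of 11.43 and 11.15 in untreated and of 10.49 and 10.74 in treated cells. Its untreated replicates were farther apart than those of AARS1 or SARS1, and the groups did not overlap. The log2 fold change was -0.67 (SE 0.26, 1.60-fold lower; limma unadjusted p 0.0239, adjusted 0.960). YARS1, the tyrosyl-tRNA synthetase, had untreated signals of 12.89 and 12.90 and treated signals of 12.17 and 12.52. Here the untreated replicates nearly coincided and the treated ones were both lower, with a log2 fold change of -0.55 (1.47-fold lower, SE 0.25, limma unadjusted p 0.0490, adjusted 1). GARS1, whose single gene gives both the cytosolic and the mitochondrial glycyl-tRNA synthetase, had signals of 15.49 and 15.63 in untreated and of 15.04 and 15.16 in treated cells. Its groups were separate, with a log2 fold change of -0.46 (SE 0.24, 1.38-fold lower, limma unadjusted p 0.0840).

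For NARS1, the asparaginyl-tRNA synthetase, 1 array set the mean: its signals were 13.32 and 13.28 in untreated cells, 13.44 on MCP-1-treated replicate 1 and 12.30 on replicate 2. The mean log2 fold change of -0.43 (SE 0.30) became 0.14 without treated replicate 2. A similar picture was seen for EPRS1, the enzyme that charges both glutamate and proline, with 12.56 and 12.82 in untreated and 12.59 and 12.06 in treated cells. Only treated replicate 2 lay below the untreated range of EPRS1, and the log2 fold change was -0.36 (SE 0.27, -0.63 to -0.10 with 1 array left out). TARS1, the threonyl-tRNA synthetase, had untreated signals of 13.56 and 13.70 and treated signals of 13.49 and 13.08. Both treated values of TARS1 were lower, replicate 1 by little, and its log2 fold change was -0.35 (SE 0.26, -0.55 to -0.14 with 1 array left out). LARS1 (-0.28) was also lower on both treated arrays, whereas the groups of IARS1 (-0.18) overlapped.

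The 5 cytosolic enzymes with higher treated means were RARS1, HARS1, FARSA, FARSB and KARS1. RARS1, which charges arginine, had signals of 11.93 and 12.21 in untreated and of 12.31 and 12.49 in treated cells. Both treated arrays were above both untreated ones, and the log2 fold change was 0.33 (SE 0.24, 95% interval -0.20 to 0.87, limma unadjusted p 0.198). HARS1 (0.26) and FARSA (0.16), a subunit of the phenylalanyl-tRNA synthetase, were also higher on both treated arrays, while FARSB (0.12), the other subunit, overlapped. KARS1, the lysyl-tRNA synthetase of both compartments, had signals of 13.84 and 13.96 in untreated and of 13.88 and 14.15 in treated cells, an overlap, with a log2 fold change of 0.11 (SE 0.24).

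**Figure D2:**
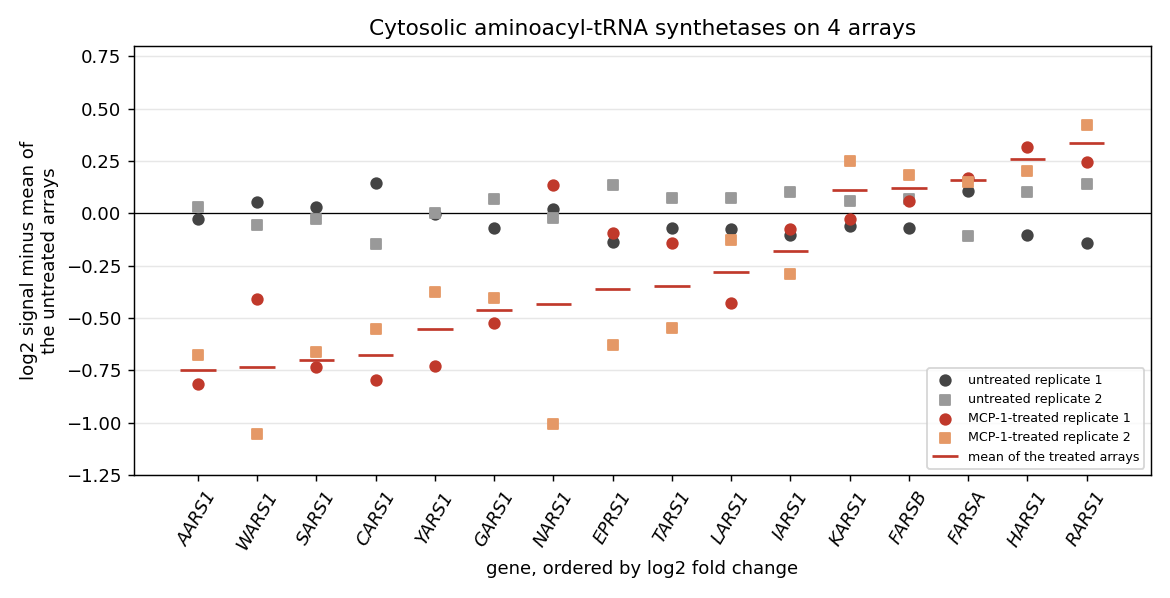
Log2 signal of each measured cytosolic synthetase on each array minus the mean of its untreated arrays (y axis), with the genes ordered by log2 fold change. Points are single arrays and red bars are the means of the treated arrays: both treated arrays lie below both untreated arrays in 8 of 16 genes, and the NARS1 mean of -0.43 rests on MCP-1-treated replicate 2.

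Grouped by catalytic class, 6 of 7 measured class I enzymes and 5 of 9 class II enzymes had a lower treated mean, with medians of -0.36 and -0.35. EPRS1, which charges both glutamate and proline, was counted in class I only, and its value is the class I median. Between arrays numbered 1 and between arrays numbered 2, the medians were -0.35 and -0.39 in class I. In class II they were 0.03 and -0.47, so the class II median rested on the arrays numbered 2. Of the 5 measured enzymes that belong to the multisynthetase complex (EPRS1, IARS1, KARS1, LARS1 and RARS1), 0 had an unadjusted p under 0.05, and their median was -0.18. All 5 enzymes with an unadjusted p under 0.05 were among the 11 measured enzymes outside it, whose median was -0.46. By replicate number 1 and 2, the medians were 0.03 and -0.20 in the complex, and -0.45 and -0.47 outside it. The 6 measured cytosolic genes with the C/EBP-ATF element all had a lower treated mean, with a median of -0.45, against 47.7% of all probe sets. Between arrays numbered 1, NARS1 (0.12) and IARS1 (0.03) were higher, and AARS1, CARS1, GARS1 and TARS1 were lower. Without MCP-1-treated replicate 2, NARS1 was 0.14. YARS2, the mitochondrial gene that holds the element, had a log2 fold change of 0.16. Of the 8 cytosolic genes without the element, 3 (EPRS1, SARS1 and WARS1) had a lower mean, and the median was 0.12. The count with an unadjusted p under 0.05 was 2 in each group, AARS1 and CARS1 with the element and SARS1 and WARS1 without it. LARS1 and YARS1 have no promoter in the table. These groupings are descriptions of few genes, and no difference between them was tested.

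Mitochondrial synthetases showed no common direction: the treated mean was below the untreated one in 7 of 15 and above it in 8, and log2 fold changes ran from -0.36 to 0.39. Both treated arrays were lower in 2 (15.2% of all probe sets) and higher in 2 (16.3%), near those shares, and the groups overlapped in 11. Their median within-group SD was 0.240, and AARS2, LARS2, MARS2 and VARS2 lay in the range of negative controls, where the array says little about the transcript.

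EARS2, which charges mitochondrial glutamate tRNA, had signals of 6.18 and 5.97 in untreated and of 6.53 and 6.40 in treated cells. Both treated values of EARS2 were higher, and all 4 were close to the negative control percentile of 6.11. Only on MCP-1-treated replicate 1 did EARS2 lie above the percentile of the array itself (6.36). The log2 fold change of EARS2 was 0.39 (SE 0.24, limma unadjusted p 0.136). SARS2, the mitochondrial seryl-tRNA synthetase, had untreated signals of 7.82 and 7.49 and treated signals of 7.46 and 7.12. The treated values of SARS2 were lower, the groups nearly touched, and the log2 fold change was -0.36 (SE 0.24, limma unadjusted p 0.163, -0.54 to -0.19 with 1 array left out). NARS2, the asparagine enzyme of mitochondria, had untreated signals of 8.94 and 8.68 and treated signals of 8.68 and 9.49, so that only treated replicate 2 was high (log2 fold change 0.27, SE 0.29).

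FARS2, for phenylalanine, had signals of 7.54 and 8.02 in untreated and of 7.70 and 8.33 in treated cells, with overlapping groups and a log2 fold change of 0.23. For WARS2, the tryptophan enzyme, untreated signals of 10.34 and 10.12 and treated signals of 9.89 and 10.12 gave -0.22, again with overlap. IARS2, the isoleucine enzyme, had 12.42 and 12.53 in untreated and 12.35 and 12.55 in treated cells, with overlap (log2 fold change -0.02, 95% interval -0.56 to 0.51). VARS2, for valine, had 4.83 and 4.98 in untreated and 4.88 and 5.35 in treated cells, all below the negative control percentile. The remaining log2 fold changes lay between -0.20 (AARS2) and 0.16 (YARS2).

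The accessory genes did not share the cytosolic direction as a pair. AIMP1, a scaffold of the multisynthetase complex, had signals of 12.38 and 12.17 in untreated and of 12.15 and 12.45 in treated cells, with overlapping groups and a log2 fold change of 0.02 (95% interval -0.54 to 0.59). XPOT, the tRNA exporter, had untreated signals of 13.32 and 13.58 and treated signals of 13.17 and 13.06. Both treated XPOT values were lower, with a log2 fold change of -0.33 (SE 0.25, limma unadjusted p 0.208, -0.46 to -0.21 with 1 array left out).

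**Figure D3:**
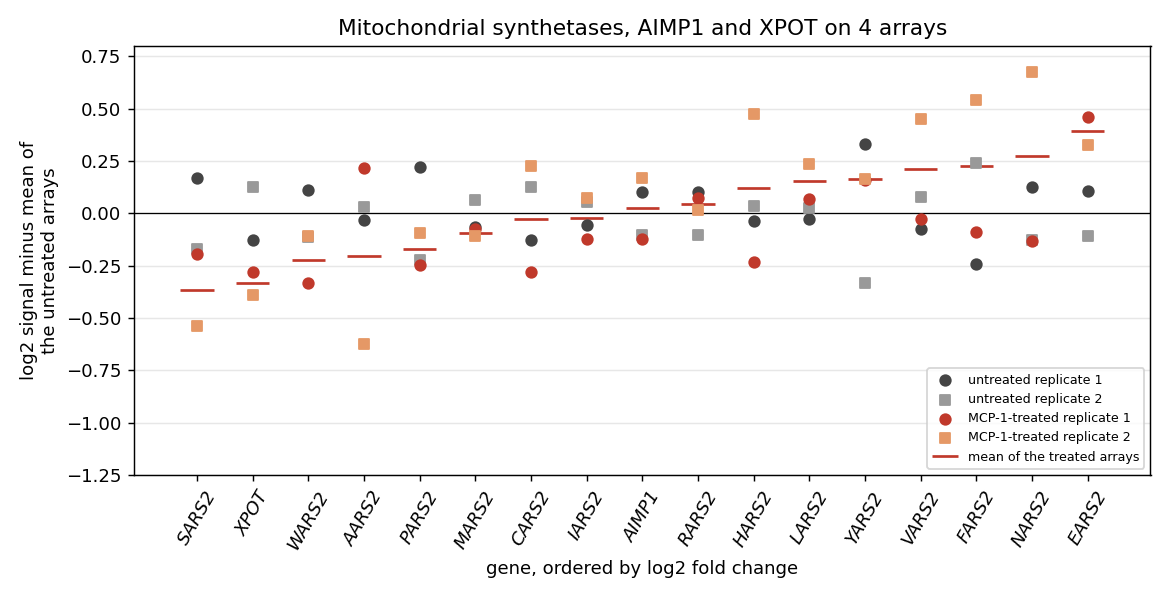
Log2 signal of each measured mitochondrial synthetase, AIMP1 and XPOT on each array minus the mean of its untreated arrays (y axis, the same scale as in the plot of cytosolic enzymes). Points are single arrays and red bars the means of the treated arrays, which lie between -0.36 (SARS2) and 0.39 (EARS2).

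Since enzymes for the same amino acid share a substrate but not a gene, they were set side by side in 12 pairs covering 11 amino acids. For phenylalanine, FARSA (0.16) and FARSB (0.12), subunits of the same enzyme, were each set against FARS2 (0.23). Both count as below it although both were higher after MCP-1, and FARS2 ranged from -0.0875 to 0.54 with 1 array left out. The log2 fold change of the cytosolic enzyme was below that of its mitochondrial counterpart in 10 pairs and above it in 2, histidine (difference 0.14) and arginine (0.29), with a median difference of -0.38. In 2 of the 10, alanine and leucine, the mitochondrial enzyme lay in the range of negative controls, and over the 10 pairs that remain without them the cytosolic value was lower in 8 and the median difference was -0.25. Of these 10, tyrosine and asparagine had the lowest differences, both -0.71, followed by cysteine at -0.65 and tryptophan at -0.51. For asparagine the difference was 0.37 between arrays numbered 1 and -1.79 between arrays numbered 2, so it rested on replicate 2 of both enzymes. For tryptophan the difference was -0.02 between arrays numbered 1, so it too rested on the arrays numbered 2. For tyrosine the differences by replicate number were -0.56 and -0.87. The groups of YARS2 overlapped, with signals of 7.86 and 7.20 in untreated cells and of 7.69 on both treated arrays. For serine the difference was -0.33, because SARS2 was lower as well. With arrays matched by label only, the difference was negative for both replicate numbers in 8 pairs, positive for both in 1 and opposed in 3. The 8 include alanine and leucine, with their dim mitochondrial enzymes, and both phenylalanine pairs. Some count as negative on small values for 1 replicate number: tryptophan (-0.02), FARSB (-0.02), FARSA (-0.04) and alanine (-0.05). Over the pairs, the median was -0.06 from replicate 1 alone and -0.38 from replicate 2 alone, and it was -0.01 without MCP-1-treated replicate 2. With 2 arrays against 2, the smallest two-sided p an exact permutation test allows is 0.333, and the differences are given without a test.

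**Figure D4:**
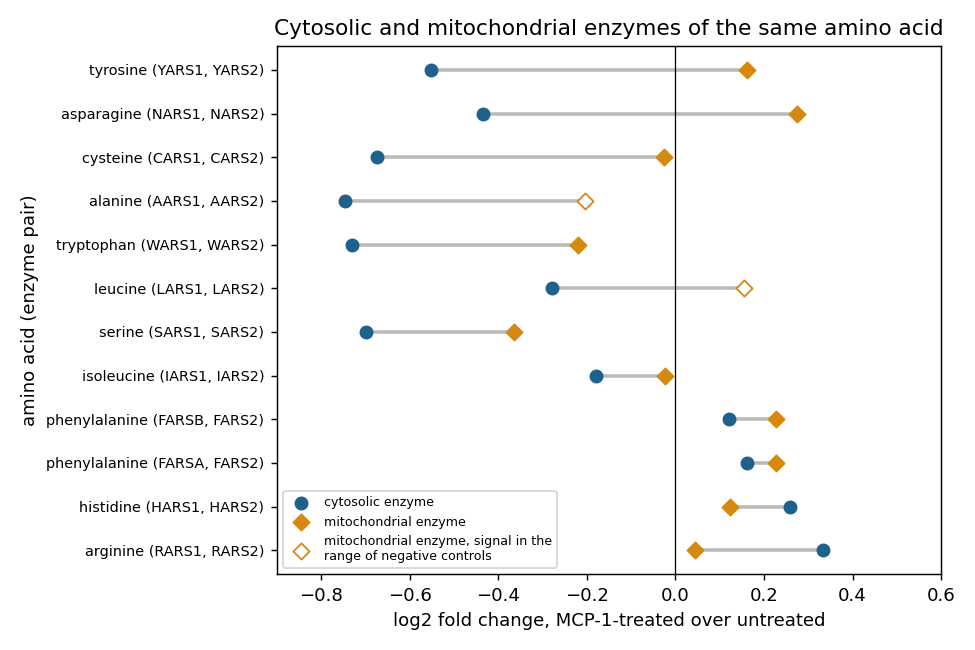
Log2 fold change (x axis, MCP-1-treated over untreated) of the cytosolic enzyme (circle) and the mitochondrial enzyme (diamond, open where the signal lay in the range of negative controls) of each amino acid (y axis). The cytosolic circle lies to the left in 10 of 12 pairs, and to the right for histidine and arginine. Phenylalanine appears for both FARSA and FARSB, against the same FARS2 value.

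Over 5 other lists of tRNA and translation genes, the median log2 fold changes lay between -0.01 and 0.04, and no gene passed the adjusted threshold. Of 10 measured partners of tRNA charging, none had an unadjusted p under 0.05 in the limma block fit, and the median log2 fold change was -0.01, with SEPSECS (-0.34), which makes selenocysteinyl-tRNA, and DTD1 (-0.31), a deacylase that removes D-amino acids from tRNA, having the smallest p. Cytosolic elongation factors, 6 of them measured, lay between -0.08 (EEF1D, a subunit of the exchange factor) and 0.11 (EEF2K, the kinase of elongation factor EEF2). Of 8 mitochondrial translation factors none had an unadjusted p under 0.05 in the limma block fit. The smallest p was that of MTRFR (-0.41), a mitochondrial ribosome rescue factor. With the trend and robust prior 1 was lower at that level, without a share of all probe sets to set beside it. Among 58 tRNA processing and modification genes, 2 were higher at an unadjusted p of 0.05 in the limma block fit, near the 2.59% of all probe sets, namely POP1 of ribonuclease P (0.61, limma adjusted p 0.981) and TSEN54 of the tRNA splicing endonuclease (0.54, limma adjusted p 1), with a median of 0.02. The 4 measured tRNA transport genes ranged from -0.16 (XPO5) to 0.41 (RANBP2, a nucleoporin).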

How the data were processed

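RNA of 2 untreated and 2 MCP-1-treated CRL-1932 cell samples was hybridized to Clariom S arrays. The authors processed the scans with Affymetrix Expression Console 1.4 by robust multiarray averaging (RMA) and deposited log2 signals, 1 per probe set and array. Scans were not reprocessed here, and detection calls were not used.

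The table holds 24351 probe sets, and without its 2903 controls 21448 entered the tests; 17709 of these had a gene symbol, and no member had several probe sets. The 90th percentile of 612 negative controls (6.11) marked dim probe sets. Differences were fitted with limma 3.58.1 (R 4.3.3) with replicate number as a block, since the methods of the study name a paired test, leaving 1 residual and 9.60 prior degrees of freedom, and p-values were adjusted by Benjamini-Hochberg over all probe sets. The number of arrays limits the precision.

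Members and lists were chosen with earlier results of these data known. Signals are given for the 10 cytosolic and 5 mitochondrial members with the smallest p, those with the highest and lowest mean signal in each class, GARS1, KARS1, AIMP1 and XPOT, and up to 2 genes per pathway list are named by smallest p. Promoters are RefSeq, GRCh38.p14. Protein sequences were not analysed here. Alternatives were no block, filters on dim probe sets, median centring, quantile normalization, a variance trend with robust estimation, 1 probe set per gene, single replicate numbers, each array left out and the methods' paired t-test. The trend and robust estimation combined with a filter or with no block was added after seeing the data. The fit was tested on simulated data. Figures were drawn with Python 3.11.15 and matplotlib 3.10.9.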

Additional observations from a re-analysis of the deposited data

How the results depend on the processing

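Over all probe sets, the 7 calls became 0 without the replicate block, 0 with median centring or quantile normalization, 0 to 0 with any array left out, 49 without probe sets under the 90th percentile of negative controls, and 69 with the trend and robust prior, which changes 2 settings at once. The methods' t-test gave 20 probe sets at its p and fold threshold of 2, 123 at a fold of 1.5 and 4 after Benjamini-Hochberg adjustment. Same-numbered arrays did not deviate together (correlation -0.0466), so the block and the splits by replicate number follow the labels alone. The cause of these shifts was not tested.

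For the cytosolic enzymes, the 0 calls at an adjusted p of 0.05 became 3 with the trend and robust prior. They were also 3 with that prior and the filter on dim probe sets. The methods' t-test called 0 after adjustment, and 1 (AARS1) at its unadjusted p under 0.05 and a fold of 1.5. The 5 calls at an unadjusted p of 0.05 became 9 with the trend and robust prior. For that prior the share of all probe sets at this level is not given here, so the 9 have no background beside them. The calls stayed 5 without the block, and were 0, 1 and 0 with the methods' t-test at a fold of 2, a fold of 1.5 and after adjustment. Fits with an array left out have a single array in a group and no share of all probe sets at this level. Calls of members at this level are therefore not given for them. The mitochondrial count at this level stayed 0 in the alternatives run that kept every array.

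The cytosolic median of -0.35 was -0.0201 from replicate 1 alone and -0.42 to -0.12 with an array left out. The amino acid difference of -0.38 was -0.0586 from replicate 1 alone and -0.42 to -0.0130 with an array left out, the last without MCP-1-treated replicate 2, and -0.25 without dim probe sets. The mitochondrial median ranged from -0.09 to 0.16.

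Leaving out 1 array was followed gene by gene only for members whose signals are given, so other members may turn as well. Among those followed, it turned the direction of NARS1 (-1.01 to 0.14), FARS2 (-0.0875 to 0.54), NARS2 (-0.13 to 0.68), AIMP1 (-0.12 to 0.17), IARS2 (-0.12 to 0.0751), VARS2 (-0.0250 to 0.45) and KARS1 (-0.0283 to 0.25). AARS1 (-0.81 to -0.68) and SARS1 (-0.74 to -0.66) kept theirs. Fits with an array left out had no block.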
